A study of Mus musculus with 8 samples.

Results

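The 9 long noncoding RNAs H19, Meg3, Rian, Mirg, Malat1, Neat1, Gas5, Kcnq1ot1 and Airn were followed in C2C12 myoblasts after silencing of Pvt1, itself a long noncoding RNA. They were chosen by name: every spot that is no control and whose gene name equals one of the 9 was taken, with no use of its values. Of the 9 names, 8 had a spot among 37074 gene names on the array, and Malat1 had none. The 8 RNAs were covered by 23 probes with 1 spot each. Of these, 12 probes of 5 RNAs (H19, Gas5, Kcnq1ot1, Airn and Neat1) had enough signal to be tested, while all 9 probes of Meg3, Rian and Mirg and 1 probe each of Kcnq1ot1 and Airn did not.

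C2C12 is a mouse myoblast line, and all 8 cultures were proliferating cells of that line at passage 10, transfected with Lipofectamine 2000. The Pvt1 silenced group (4 cultures) received LNA GapmeRs against Pvt1, antisense oligonucleotides that direct RNase H to the RNA they pair with. The negative control group (4 cultures, called Mock in the labels) received negative control GapmeRs. The labels call the cultures of a group biological replicates 1 to 4, and p-values measure only the spread between these cultures of 1 line. Each culture was hybridised to 1 one-colour Agilent array, so that the number of arrays limits the precision. The GapmeRs that set the groups apart are given here 5′ to 3′, as the labels list them for all samples.
Pvt1_1: accgtagtagagttaa
Pvt1_3: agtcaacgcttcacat

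H19, Meg3, Rian, Mirg, Kcnq1ot1 and Airn are imprinted, which means that 1 parental copy of the gene is transcribed. H19 is transcribed from the maternal copy beside Igf2, gives rise to a microRNA and is abundant in embryonic muscle. Meg3, Rian and Mirg lie in a row in the Dlk1-Dio3 domain, are maternally expressed and carry small nucleolar RNAs and microRNAs in their introns. Kcnq1ot1 and Airn are long, mostly unspliced nuclear RNAs of the paternal copy that silence neighbouring genes in cis. Neat1 is the scaffold of paraspeckles, Malat1 is a component of nuclear speckles, and Gas5 is the spliced host of small nucleolar RNAs that is degraded when translated and accumulates in arrested cells.

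The probe sequences are shown for the RNAs on which the results turn, since probes of the same RNA gave different answers. They are 5′ to 3′ in lower case, with positions on mouse build mm9 and the strand, both as the deposited files give them. No annotation of that build was used here, so the exon or intron that a probe falls in was not analysed.
H19 A_30_P01026972, chr7:149762173-149762232, minus strand: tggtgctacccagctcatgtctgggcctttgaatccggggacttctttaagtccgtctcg
H19 A_55_P2903297, chr7:149761492-149761551, minus strand: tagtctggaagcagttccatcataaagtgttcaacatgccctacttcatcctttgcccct
Gas5 A_55_P2740898, chr1:162967641-162968147, plus strand: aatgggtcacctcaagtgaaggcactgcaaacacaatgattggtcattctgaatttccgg
Gas5 A_55_P2845828, chr1:162968590-162968649, plus strand: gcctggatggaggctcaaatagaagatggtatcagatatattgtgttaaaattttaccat
Kcnq1ot1 A_55_P2726560, chr7:150410464-150410523, minus strand: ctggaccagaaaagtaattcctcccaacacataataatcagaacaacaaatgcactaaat
Airn A_55_P2055199, chr17:13008078-13008137, plus strand: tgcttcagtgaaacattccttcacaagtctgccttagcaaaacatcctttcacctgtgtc
Neat1 A_55_P2740113, chr19:5844378-5844437, minus strand: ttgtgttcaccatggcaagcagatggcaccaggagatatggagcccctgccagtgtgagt
Neat1 A_65_P09473, chr19:5844123-5844182, minus strand: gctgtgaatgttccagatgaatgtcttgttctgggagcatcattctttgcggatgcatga
The first H19 probe lies 681 bases upstream of the second, measured between their middles. The interval of Gas5 A_55_P2740898 is 507 bases long for a probe of 60 bases, so the probe joins separated stretches of the genome.

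All values below are log2 signals after quantile normalization. Pvt1, the target, was checked first: its brightest probe A_55_P2051254 had values between 9.65 and 10.31 in controls and between 6.39 and 7.85 in silenced cells, a change of -2.86 (SE 0.32, limma adjusted p 0.000682), which left 13.8% of the control level. Between 58.8% and 62.5% of spots were positive and significant on control arrays and between 51.6% and 61.0% on silenced arrays. Arrays correlated with the rest of their own group at 0.979 to 0.985 on average, except control replicate 3 at 0.962, and silenced replicate 4 had the lowest share of such spots. Of 8 myoblast markers, 7 were well above background on all 8 arrays and Myf5 on none, while Myod1, Des and Cdh15 fell. The summed signal of 8 liver markers went from 849 to 1520 on control arrays to 3730 to 5730 on silenced arrays, with Apoa2 well above background on all 8 arrays and Apoa1 on none. The summed signal of 6 markers of differentiated muscle was 3010 to 4230 in controls and 1210 to 1910 in silenced cells, and that of 5 neural markers was 16900 to 21900 and 8700 to 11600. That of 4 epithelial markers was 48.7 to 84.5 and 115 to 136, with 3 of the 4 well above background on no array. Of 4 fibroblast markers Pdgfra rose, while their summed signal was 6110 to 8530 and 5510 to 7840. Blood and endothelial marker sums overlapped between the groups, and of these markers Itgam fell. The part of these shifts in the results below was not tested. In such bulk RNA, fewer cells with an RNA and less of it per cell cannot be told apart.

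Among the 12 tested probes 1 fell and 0 rose (limma, adjusted p under 0.05), where 23.2% of all 28649 tested probes passed and 18.4% of all tested probes passed as lower. At an unadjusted p under 0.05, 3 of the 12 were lower and 0 higher with limma, and 2 lower and 0 higher with the methods' t-test. The median change of the 12 was -0.22, against -0.19 over all tested probes, and 66.7% of the 12 against 61.5% of all probes had a negative change. Without overlap between the groups were 3 of the 12 probes, beside 28.2% of all probes. When each RNA was represented by its brightest probe, 0 of the 5 RNAs passed, while 14.0% of 19360 genes were called lower and 5.99% higher. At an unadjusted p under 0.05, Kcnq1ot1 was the 1 of the 5 that was lower, with limma and with the methods' t-test alike.

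**Figure D1:**
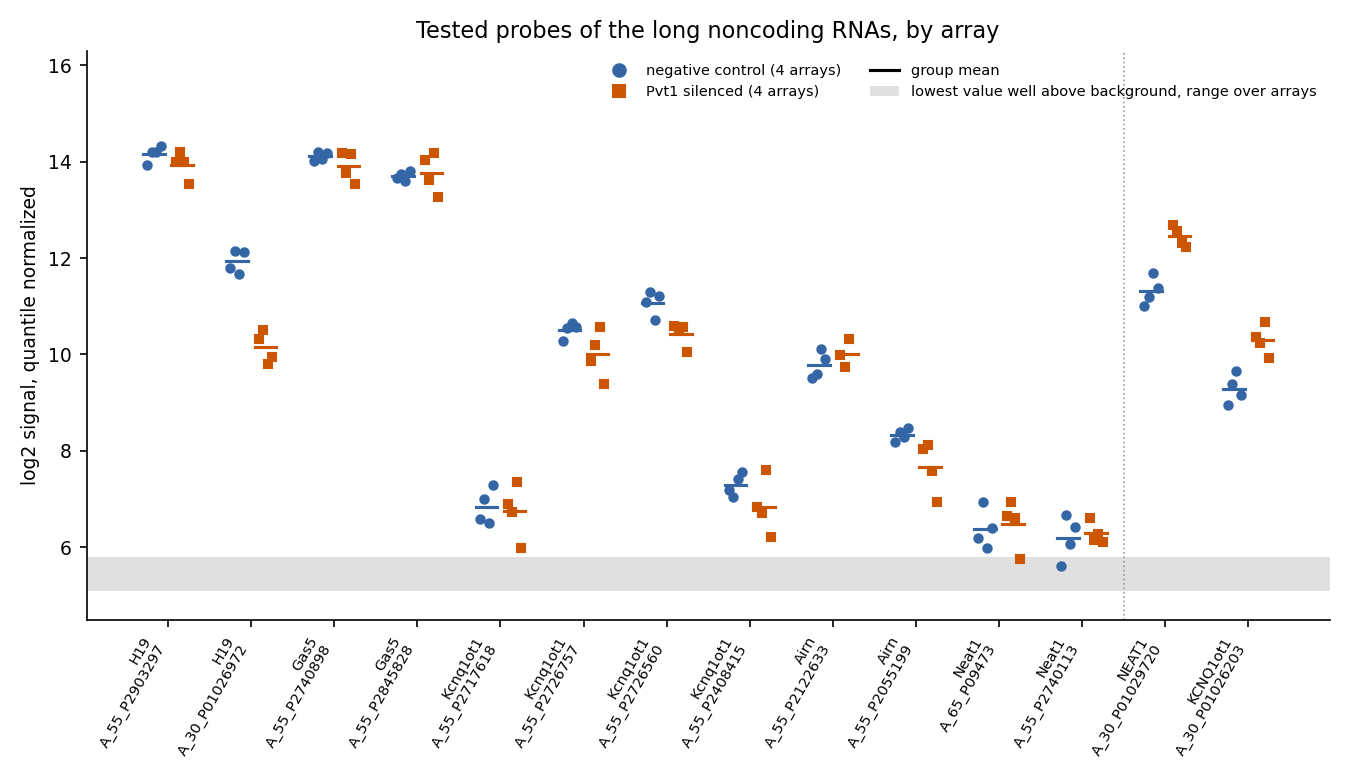
Log2 signal (vertical axis) of the 12 tested probes of the long noncoding RNAs and, right of the dotted line, of probes that the array names NEAT1 and KCNQ1ot1, in 4 control arrays (circles) and 4 silenced arrays (squares), with group means as lines; the grey band is the range over arrays of the lowest value well above background. The silenced values of H19 probe A_30_P01026972 lie between 9.81 and 10.51, below all control values, while those of H19 probe A_55_P2903297 lie between 13.54 and 14.19 and overlap the controls.

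**Figure D2:**
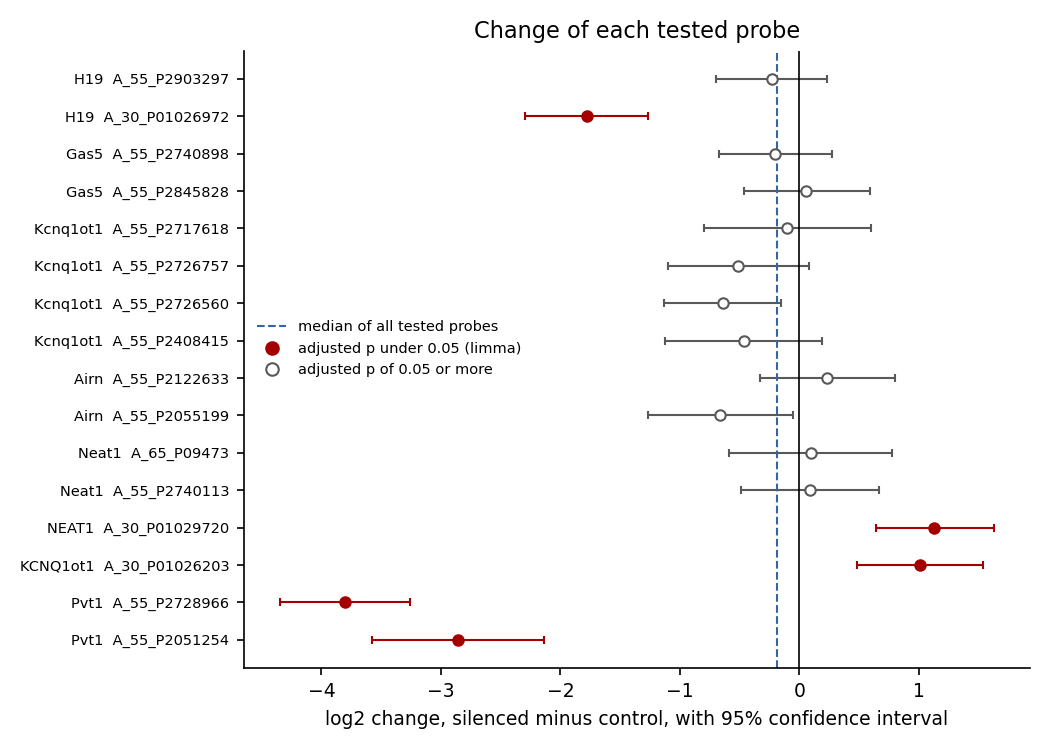
Log2 change of each probe (horizontal axis, silenced minus control) with its 95% confidence interval, filled where the limma adjusted p was under 0.05, with the median of all tested probes, -0.19, as a dashed line. Of the 12 probes of the rule, only the upstream H19 probe is filled, at -1.78.

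H19 fell at its upstream probe, and its downstream probe did not pass. The upstream probe A_30_P01026972 read 11.80, 12.15, 11.66 and 12.12 in control replicates 1 to 4 and 10.33, 10.51, 9.81 and 9.94 in silenced replicates 1 to 4. Every silenced value lay below every control value. It fell by 1.78 on the log2 scale (SE 0.23, 95% confidence interval -2.30 to -1.27, limma adjusted p 0.00112), which left 29.0% of the control level. The downstream probe A_55_P2903297 read 13.93, 14.21, 14.20 and 14.33 in controls and 13.99, 14.19, 14.00 and 13.54 in silenced cells. Here the groups overlapped, with silenced replicate 4 the lowest and the other 3 silenced values within the range of the controls. Its change was -0.23 (95% confidence interval -0.70 to 0.23, limma adjusted p 0.461). Both probes were well above background on all 8 arrays and saturated on none.

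Arrays of both groups lay in both rows of the slide. Within the row that held control replicates 1 to 3 and silenced replicate 1, the change at the upstream H19 probe was -1.54. Within the row that held control replicate 4 and silenced replicates 2 to 4 it was -2.03. Each row had 1 group with 1 array, so only sizes are given. Fitted with the slide row as a further term, the change was -1.79 (limma adjusted p 0.00961). Without control replicate 3 and silenced replicate 4 it was -1.81 (limma adjusted p 0.00156).

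The signal of a gene's upstream (5′) probe minus that of its downstream (3′) probe was then taken on each array, for every gene with a pair of tested probes on 1 strand, and compared between the groups. For H19 it was -2.13, -2.06, -2.54 and -2.21 in controls and -3.67, -3.68, -4.19 and -3.59 in silenced cells, so that the groups did not overlap. The upstream signal thus fell against the downstream one by 1.55 on the log2 scale (SE 0.21, limma adjusted p 0.000904). H19 was the 1 of the 5 RNAs that passed, where 31.7% of all 6118 genes were called lower and 7.21% higher. The same shift was widespread: its median over the 6118 genes was -0.43, and 70.6% of genes had a negative value. Among 743 genes whose probes lay 300 to 1000 bases apart, like those of H19, the median was -0.69 and 351 were called lower and 31 higher. A value lower than that of H19 was found in 11.1% of all genes and in 17.6% of these 743, and the distance range was chosen after values were seen. The part of this array-wide shift in the fall of the upstream H19 probe was not tested.

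Gas5 had probes 726 bases apart, and neither passed. Its upstream probe A_55_P2740898 read 14.01, 14.20, 14.05 and 14.17 in controls and 14.17, 13.76, 14.16 and 13.53 in silenced cells, a change of -0.20 (95% confidence interval -0.67 to 0.27, limma adjusted p 0.531). The downstream probe A_55_P2845828 read 13.67, 13.75, 13.60 and 13.80 in controls and 14.03, 13.62, 14.17 and 13.26 in silenced cells, a change of 0.06 (95% confidence interval -0.46 to 0.59, limma adjusted p 0.876). Control values of each probe lay close together and silenced values were more spread, within or below the controls upstream and above, within or below them downstream, with silenced replicate 4 the lowest at both. After a shift to the 75th percentile in place of quantile normalization, the upstream change turned to 0.39 (limma adjusted p 0.089) and the downstream probe passed as higher (0.64, limma adjusted p 0.0234). The difference between both probes was 0.34, 0.45, 0.45 and 0.37 in controls and 0.14, 0.14, -0.02 and 0.27 in silenced cells. No silenced value reached a control value (exact two-sided permutation p 0.0286, the smallest that 4 against 4 arrays allow). The change of -0.27 did not pass in the fit over all genes (SE 0.16, limma adjusted p 0.217), and 57.8% of genes had a lower value.

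**Figure D3:**
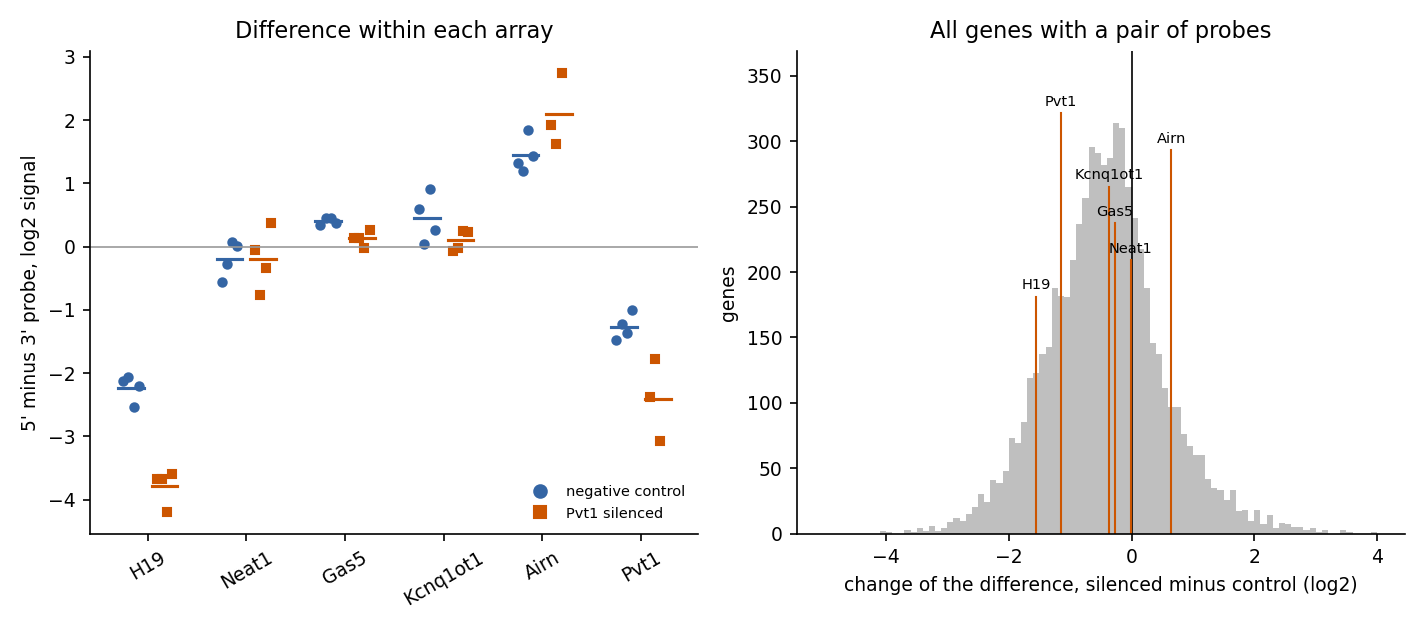
Left, the log2 signal of the upstream minus the downstream probe of each RNA and of Pvt1 on every array (circles, control; squares, silenced; lines, group means). Right, a histogram over 6118 genes of the change of that difference (silenced minus control, log2), with these RNAs marked. H19 at -1.55 lies on the left flank, the middle of all genes is at -0.43, and Airn at 0.65 lies on the right.

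Kcnq1ot1 had negative changes at 4 of 4 tested probes, and none of the 4 passed. Probe A_55_P2726560 read 11.08, 11.30, 10.72 and 11.21 in controls and 10.59, 10.54, 10.56 and 10.05 in silenced cells, without overlap. Its change was -0.64 (SE 0.22, 95% confidence interval -1.13 to -0.15, limma adjusted p 0.0603), and without control replicate 3 it was -0.76 with an adjusted p of 0.0315. Probe A_55_P2726757, chr7:150409006-150409065, ranged from 10.28 to 10.66 in controls and from 9.39 to 10.56 in silenced cells, a change of -0.51 (limma adjusted p 0.197). The most upstream probe, A_55_P2408415 at chr7:150440140-150440199, ranged from 7.04 to 7.56 and from 6.22 to 7.60, a change of -0.46 (limma adjusted p 0.290). The most downstream one, A_55_P2717618, ranged from 6.51 to 7.29 and from 5.99 to 7.35, a change of -0.10 (limma adjusted p 0.848). The interval listed for it, chr7:150399016-150399052, covers 37 bases of a 60-base probe, so its position is uncertain. Silenced replicate 4 was the lowest array at all 4 probes. Over the 41136 bases between the outer pair, the 5′ minus 3′ difference changed by -0.36 (SE 0.23, limma adjusted p 0.24).

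Airn had changes of opposite sign at its tested probes, and neither passed. The upstream probe A_55_P2122633, chr17:12944784-12944843, read 9.51, 9.60, 10.12 and 9.90 in controls and 9.98, 9.74 and 10.33 in silenced replicates 1 to 3. The spot on silenced replicate 4 was an outlier spot with a processed signal of 4041 and was left out, where the other 7 arrays had 663 to 1152. Its change was 0.23 (95% confidence interval -0.33 to 0.80, limma adjusted p 0.55). In the normalized values that the authors deposited, where that spot is kept, it was 0.86 (limma adjusted p 0.39). The downstream probe A_55_P2055199 read 8.18, 8.40, 8.28 and 8.47 in controls and 8.05, 8.12, 7.58 and 6.95 in silenced cells, without overlap. Its change was -0.66 (SE 0.27, 95% confidence interval -1.27 to -0.05, limma adjusted p 0.112). The 5′ minus 3′ difference changed by 0.65 (SE 0.31, limma adjusted p 0.131, 7 arrays), and 88.6% of genes had a lower value.

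Both Neat1 probes were dim, and neither passed. Probe A_65_P09473 read 6.19, 6.95, 5.99 and 6.41 in controls and 6.65, 6.93, 6.61 and 5.75 in silenced cells, a change of 0.10 (95% confidence interval -0.59 to 0.78, limma adjusted p 0.852). It was well above background on 3 of 4 arrays of each group. Probe A_55_P2740113 read 5.62, 6.67, 6.06 and 6.43 in controls and 6.60, 6.16, 6.28 and 6.11 in silenced cells, a change of 0.09 (95% confidence interval -0.49 to 0.67, limma adjusted p 0.836). These values do not exclude changes inside those intervals.

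A probe that the array names NEAT1 in capitals, and that the rule therefore did not take, was among those within 50 kb of the members. Its description places it in a long intergenic noncoding RNA on the minus strand, chr19:5842306-5845476, an interval that also holds both Neat1 probes. It lies downstream of them and is given for that reason.
NEAT1 A_30_P01029720, chr19:5842654-5842713, minus strand: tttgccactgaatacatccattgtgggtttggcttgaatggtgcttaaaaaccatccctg
This probe read 11 in control replicate 1, 11.19, 11.70 and 11.37 in the other controls and 12.69, 12.57, 12.32 and 12.22 in silenced cells. All silenced values lay above all control values. It rose by 1.13 (SE 0.22, 95% confidence interval 0.64 to 1.63, limma adjusted p 0.0065), to 220% of the control level. Along the same strand, the downstream probe rose and the upstream Neat1 probes did not pass. For H19 the upstream probe fell and the downstream one did not pass. In both cases the upstream change was the lower one. That sign was found in 70.6% of the 6118 genes with a pair of probes. Whether the NEAT1 and Neat1 probes changed by different amounts was not tested.

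Of all 28649 tested probes, 1373 passed as higher. Around Neat1, 12 probes under other names were tested within 50 kb, 3 rose and the other 9 did not pass. Besides NEAT1 these were Slc25a45, a mitochondrial carrier gene, at its probe A_55_P2805797 (1.02, limma adjusted p 0.0238), and a plus-strand noncoding RNA, probe A_30_P01020677 at chr19:5844965-5845024. The latter went from a mean of 5.83 to 7.90, a change of 2.07 (SE 0.39, limma adjusted p 0.00538). A second probe of the same named RNA, A_30_P01020769, at chr19:5845052-5845111, changed by -0.67 (limma adjusted p 0.219). The other Slc25a45 probe changed by -0.44 (limma adjusted p 0.325), and the call of the first was lost on leaving out any of 6 single arrays and with the slide row as a further term (limma adjusted p 0.0796).

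Beside Kcnq1ot1, a probe named KCNQ1ot1, A_30_P01026203 at chr7:150482141-150482200, rose by 1.01 (SE 0.24, limma adjusted p 0.0141). It read 8.95, 9.39, 9.65 and 9.17 in controls and 10.36, 10.24, 10.67 and 9.93 in silenced cells, without overlap. The files place it on the plus strand, in an interval chr7:150399015-150482452 that holds all Kcnq1ot1 probes, whose strand is minus. Its call was lost without control replicate 4 (0.97, limma adjusted p 0.0534). Fitted with the slide row as a further term, it was 1.07 (limma adjusted p 0.0528). The Kcnq1ot1 probes on the minus strand had negative changes, as given above, so the name alone did not settle a direction.

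Nctc1, a noncoding RNA transcribed on the same strand as H19 and 21793 bases away, fell by 1.49 to a mean of 6.51 in silenced cells (SE 0.28, limma adjusted p 0.00553). It passed in 17 of 22 alternatives. Mrpl23, a mitochondrial ribosomal protein gene further downstream on the other strand, changed by 0.53 (limma adjusted p 0.107). Inside the stretch covered by the Airn probes and on the same strand, 4 probes under other names were found. Probe A_66_P105880, chr17:13012094-13012153, a predicted gene, had a processed signal of 167.2, 164.4, 149.6 and 174.1 in controls and of 13.5, 15.0, 12.2 and 23.0 in silenced cells. It was well above background on 4 control arrays and 0 silenced ones and was at least 3.70-fold higher in controls, but it had no silenced value and so could not be tested. Probe A_30_P01017675, chr17:12968254-12968313, was positive and significant on 4 control arrays and 0 silenced ones and well above background on none. Probe A_30_P01023109 was well above background on 1 control array, and A_30_P01029541 changed by -0.24 (limma adjusted p 0.411). These 4 probes were singled out after their values were seen. Near Airn, Pnldc1, which encodes a ribonuclease-like protein, fell at probe A_55_P2061492 (-1.06, limma adjusted p 0.0156), while its probe A_55_P2061991 changed by -0.52 (limma adjusted p 0.31). The Pnldc1 call was lost without control replicate 2 (limma adjusted p 0.0565) or control replicate 4 (limma adjusted p 0.0571), and with the slide row as a further term (limma adjusted p 0.0712). Near Gas5, 8 probes under other names were tested and 0 passed with limma. These included A_30_P01023313, a plus-strand probe inside the stretch covered by the Gas5 probes, which changed by -0.78 (SE 0.30, limma adjusted p 0.0851).

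Meg3, Rian and Mirg stayed at or near background. Of their 9 probes, 5 were positive and significant on no array, and 6 probes were well above background on no array. Among the latter, Meg3 probe A_55_P2736854 was positive and significant on 2 control arrays and 4 silenced ones. Meg3 had 1 probe with a processed signal of 85.9 on control replicate 2 and 13.3 to 23.0 on the other 7 arrays (A_55_P2033407). A second one (A_51_P455997) read 169.5 on silenced replicate 1 and 51.5 on control replicate 4, against 12.5 to 23.0 elsewhere. For Mirg, A_66_P121059 read 330.4 on silenced replicate 2 and 12.6 to 23.0 on the other arrays. Each of the 3 high values was on 1 array, so no group level could be given. Of 34 probe entries under other names within 50 kb of these 3 RNAs (some probes count for more than 1 of them), 30 were well above background on no array.

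**Figure D4:**
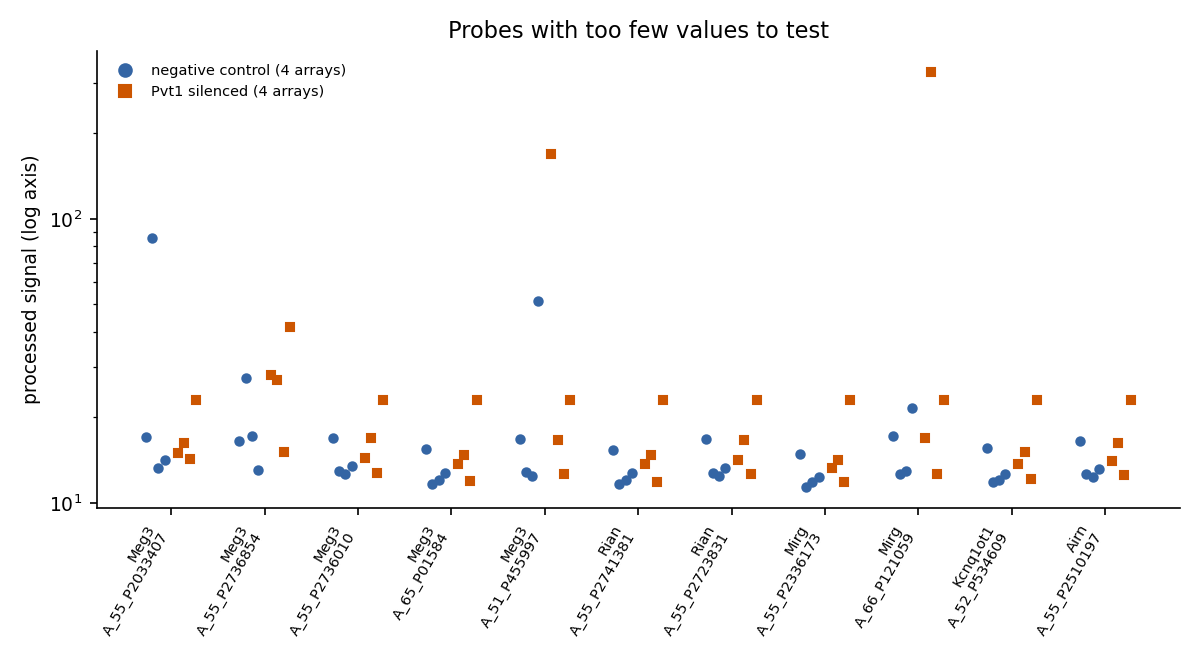
Processed signal before normalization (log axis) of the 11 probes that could not be tested, on 4 control arrays (circles) and 4 silenced arrays (squares). Most values lie between 11.4 and 23.0, and single arrays stand out at 85.9 and 169.5 for Meg3 and at 330.4 for Mirg.

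The genes of the same imprinted domains were examined next, each by its brightest probe, and the counts stand beside 14.0% of all genes called lower and 5.99% called higher. In the Dlk1-Dio3 domain 3 genes were tested and 0 passed with limma, also at an unadjusted p under 0.05 and with the methods' t-test. Dlk1, a paternally expressed inhibitor of differentiation, changed by 0.16 (limma adjusted p 0.706), and Rtl1, a retrotransposon-like gene needed in the placenta and fetal muscle, was well above background on 1 control array only. The Rtl1 spot on control replicate 3 was an outlier spot with a processed signal of 2680 and was left out. Igf2, the growth factor gene beside H19, was well above background on 1 array at 1 of its probes and on none at the other, and was not tested. In the H19-Igf2 domain 9 genes were tested, of which Tnni2, a fast skeletal muscle troponin, rose by 1.02 (limma adjusted p 0.0146) and Nctc1 fell. The Tnni2 call was lost without control replicate 2 (0.95, limma adjusted p 0.056) and with the slide row as a further term (limma adjusted p 0.0748).

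In the Kcnq1 domain 11 genes were tested, 1 rose and 2 fell. Tspan32, a tetraspanin, rose by 1.71 (limma adjusted p 0.0109), whereas Dhcr7, which makes the last step of cholesterol synthesis, fell by 1.38 (limma adjusted p 0.011). Tnfrsf22, a decoy death receptor, fell by 1.35 at its brightest probe (limma adjusted p 0.00434). The 5′ minus 3′ difference of Tnfrsf22 changed by 1.63, so its outer probes changed by unlike amounts. Kcnq1 and the growth inhibitor Cdkn1c, genes that Kcnq1ot1 silences in cis, changed by 0.59 (limma adjusted p 0.272) and -0.06 (limma adjusted p 0.936), and the Kcnq1 probe was well above background on no array. Its change ranged from 0.29 without control replicate 4 to 0.84 without silenced replicate 4, and it passed as higher in 5 of 21 alternatives, among them the shift to the 75th percentile (1.01, limma adjusted p 0.0299). In the Igf2r domain 1 of 5 genes fell, the chaperonin subunit Tcp1 (-0.72, limma adjusted p 0.0413), a call that was lost on leaving out any of 6 single arrays and with the slide row as a further term (limma adjusted p 0.154). Igf2r, the gene that Airn silences, changed by -0.48 (95% confidence interval -1.09 to 0.13, limma adjusted p 0.237), at a probe with a listed interval of 11 bases.

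Among 25 other imprinted genes 1 rose and 5 fell. Dcn, the matrix proteoglycan decorin, rose by 2.49 (SE 0.24, limma adjusted p 0.000463). Peg10, a retrotransposon-derived gene, was well above background on 4 control arrays and 0 silenced ones and was at least 5.05-fold higher in controls (limma adjusted p 0.00133). Trappc9, a vesicle trafficking gene, fell by 1.80 (limma adjusted p 0.00127). Of 18 genes that keep imprints, 4 (22.2%) fell, among them Zfp57, the zinc finger protein that guards imprinted methylation (-1.43, limma adjusted p 0.0031), and Arid4b (-1.40, limma adjusted p 0.00572).

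The protein partners of Neat1 and Malat1 were tested as lists too. Of 30 paraspeckle proteins 4 (13.3%) fell, close to the 14.0% over all genes, with a median change of -0.24 beside -0.09. Sfpq, a core protein of the paraspeckle, fell by 0.95 at its brightest probe (limma adjusted p 0.0223) and also fell at probe A_52_P76426 (-1.02, limma adjusted p 0.0237), while its other 3 probes did not pass, with changes between -0.20 and -1.12. The call at the brightest probe was lost on leaving out any of 5 single arrays and with the slide row as a further term (limma adjusted p 0.0753). Nono, its partner, changed by -0.24 (limma adjusted p 0.341), and Pspc1, the third core protein, by -0.86 (limma adjusted p 0.155) at its brightest probe, while its other probe fell by 0.70 (limma adjusted p 0.0319). Cpsf6, a cleavage factor subunit, fell by 1.21 (limma adjusted p 0.01), and Caprin1 fell by 0.99 (limma adjusted p 0.0366), a call lost on leaving out any of 7 single arrays and with the slide row as a further term (limma adjusted p 0.0925). Among 22 proteins of nuclear speckles or partners of Malat1, 5 (22.7%) fell and the median change was -0.47. The splicing factors Srsf5 and Srsf2 fell at their brightest probes (-1.32, limma adjusted p 0.00142, and -1.24, limma adjusted p 0.00992). For Srsf5 the 5′ minus 3′ difference changed by 1.14, so its outer probes changed by unlike amounts.

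Of 14 genes of RNase P and of the tRNA-type processing that trims the 3′ ends of Malat1 and the long form of Neat1, 1 rose. This was Rpph1, the RNA component of RNase P (1.92, limma adjusted p 0.0277), whose groups overlapped and whose call was lost on leaving out any of 4 single arrays and with the slide row as a further term (limma adjusted p 0.0959). Elac2, the enzyme that trims tRNA 3′ ends, changed by 0.25 at its brightest probe (limma adjusted p 0.447) and fell at another (-1.17, limma adjusted p 0.00706). Of 15 genes of transcript ends and nuclear retention 5 (33.3%) fell, among them Srrt, which links the cap to transcript ends (-2.07, limma adjusted p 0.00106).

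For Gas5, 7 of 18 genes of nonsense-mediated decay (38.9%) fell and the median was -0.35, beside 14.0% and -0.09 over all genes. These included Nbas (-1.76, limma adjusted p 0.00303) and Upf1, the helicase at the centre of the pathway (-1.61, limma adjusted p 0.00654). Of 19 small nucleolar RNA hosts 2 fell, Snhg4 (-1.17, limma adjusted p 0.0129, but 0.0674 with the slide row as a further term) and Ncl, which encodes nucleolin (-0.95, limma adjusted p 0.0067). Of 9 genes of the glucocorticoid receptor and mTOR link 1 fell, Rictor (-1.24 at its brightest probe, limma adjusted p 0.00593). Its 5′ minus 3′ difference changed by 1.23, so its outer probes changed by unlike amounts.

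Among 17 genes listed as other long noncoding RNAs 4 rose and 2 fell. Besides Rn7sk and Miat, the rises were Rpph1, given above, and Ptprv (0.94, limma adjusted p 0.0493). Ptprv is a gene of the receptor phosphatase family. Rn7sk, the abundant 7SK RNA that holds back a transcription elongation factor, rose by 2.86 (SE 0.63, limma adjusted p 0.0108), with a control SD of 1.17. Miat was well above background on 0 control arrays and 4 silenced ones and was at least 3.57-fold higher in silenced cells (limma adjusted p 0.00285). Tug1 fell by 1.19 (limma adjusted p 0.0328) and Dleu2 by 1.33 (limma adjusted p 0.0272), and both calls were lost on leaving out any of 4 single arrays and with the slide row as a further term (limma adjusted p 0.126 and 0.0839). Over all lists 208 genes were tested, 7 (3.4%) rose and 38 (18.3%) fell, near the 5.99% and 14.0% over all 19360 genes, and the median change was -0.13, beside -0.09.

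**Figure D5:**
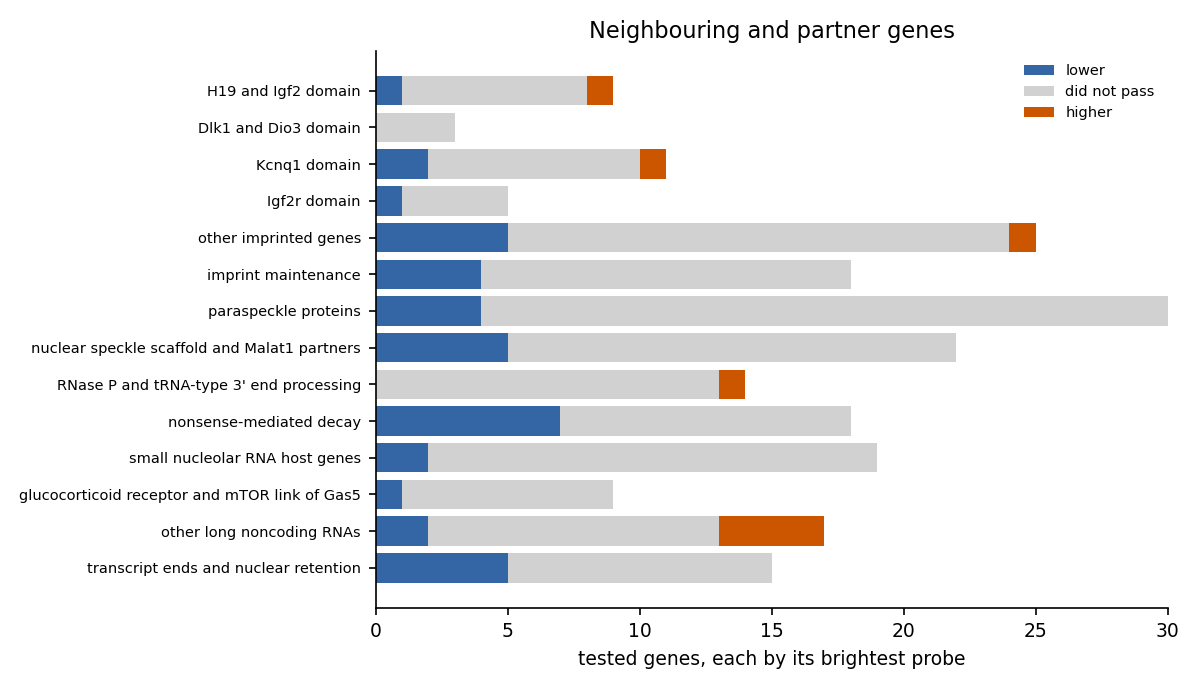
Number of tested genes (horizontal axis) in each list of neighbours and partners of the long noncoding RNAs, split into genes that fell, did not pass or rose (limma, adjusted p under 0.05). Nonsense-mediated decay has the most genes that fell, 7 of 18, and the list of other long noncoding RNAs has the most that rose, 4 of 17. The latter include Rpph1, which the RNase P list also counts, and Ptprv, of the receptor phosphatase family.

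The genes whose values over the 8 arrays ran most like a member are given as a description, with no test. For the downstream H19 probe these were Ssbp2 (Pearson r 0.984) and Galnt4 (0.978), for Gas5 Gm4633 (0.986) and Olfr1342 (0.982), and for Neat1 Ltbp1 (0.985) and a noncoding RNA at chr2:27395935-27395994 (0.971). For Kcnq1ot1, Ash1l and Adk both reached 0.994, and 329 of 17124 genes exceeded 0.95. That count was 38 for H19, 22 for Gas5 and 7 for Neat1. The points are 8 arrays in 2 groups and share the normalization.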

How the data were processed

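RNA of 8 cultures was measured on one-colour arrays of 1 slide, in 1 scan. Deposited intensity was linear and per spot, background-subtracted by Feature Extraction 12.0.0.7 per the file headers, with flags for signal and outliers. The submitters' processing notes name version 10.7.3.1. A deposited series table of normalized intensity, with 47757 values per array, held 1 of the 12 tested member probes.

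From the processed signal, log2 values were computed here. Spots not positive and significant were set to missing, as in the study's methods, and outlier spots as a choice made here. Values were quantile normalized, and spots of a probe averaged. Probes measured on 3 or more of the 4 arrays of both groups were fitted with limma 3.58.1 (R 4.3.3), all 8 arrays and group as the only term. Benjamini-Hochberg adjustment ran over all tested probes, at 0.05. The difference between 5′ and 3′ probes was fitted likewise over genes with a pair at most 200000 bases apart. A gene was represented by its brightest tested probe. Where no array of a group was well above background, only a bound is given, the bright mean against the higher of each dim array's value and its lowest value well above background. Fits were tested on simulated data. Arrays of both slide rows held both groups.

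The members, lists and tests were chosen with earlier results of these data known, while the spots of each member were taken by name alone. Named were every member, Pvt1, a fixed set of neighbours and partners, up to 2 rises and 2 falls per list, up to 3 called probes within 50 kb of a member and the 2 most alike genes. A gene that this rule named is not reported here. The distance range of 300 to 1000 bases was set after values were seen. Alternatives covered normalization, background, masking, filters, blocks, priors, the methods' t-test, other probes and single arrays left out. Fits within slide rows and without 2 arrays were added after seeing the data. Figures were drawn with matplotlib.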

Additional observations from a re-analysis of the deposited data

Results flagged for a closer look

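In 34 groups of 4 values (tested probes, 5′ minus 3′ differences and Pvt1), 2 had a value far from the other 3, and chance flags about 1 in 20 groups. At Kcnq1ot1 probe A_55_P2726560, silenced replicate 4 read 10.05 where the other silenced arrays read 10.54 to 10.59. For the H19 5′ minus 3′ difference, silenced replicate 3 was at -4.19 where the others lay between -3.68 and -3.59. Both lay on the side away from the controls.

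Outside the tested probes, 2 gave a signal well above background on 1 silenced array and on no control array. Meg3 probe A_51_P455997 had a processed signal of 169.5 on silenced replicate 1, against 12.5 to 51.5 on control arrays. Mirg probe A_66_P121059 had 330.4 on silenced replicate 2, against 12.6 to 21.5 on control arrays. Each rests on 1 spot of 1 array.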

How the results depend on the processing

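A shift to the 75th percentile moved the median change of all probes from -0.19 to 0.17 and cyclic loess to 0.02, so small changes hold only relative to these. Probes that passed higher and lower numbered 1373 and 5269 here, 7135 and 4299 after the percentile shift, 5416 and 5258 with loess, 4990 and 4787 without the mask on dim spots and 5341 and 6977 without the 2 arrays that stood apart, control replicate 3 and silenced replicate 4. The fall at the upstream H19 probe and of its 5′ minus 3′ difference kept their direction under every alternative in which they were fitted. Apart from fits within slide rows, they passed in all but the methods' t-test with Bonferroni adjustment (-1.78 and -1.55, unchanged in size). Pvt1 missed with Bonferroni too (-2.86). Within slide rows, where 1 group had 1 array, only sizes are given. These were -1.54 and -2.03 for the probe, -1.43 and -1.61 for the difference and, in the first row, -2.83 for Pvt1. The series table held no pair of these probes.

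Of the 12 probes, 2 passed after the percentile shift (with Gas5 A_55_P2845828 higher, 0.64), and 2 with normexp, with the stricter filter on dim probes, with the trended prior and without the 2 arrays that stood apart (with Kcnq1ot1 A_55_P2726560 lower, -0.62 to -0.64), where 1 of 5 genes also passed. Leaving out single arrays gave 1 to 2 probes and 0 to 1 genes (the higher counts without control replicate 3) and 26 to 61 list genes, with 26 without control replicate 2 and 27 without control replicate 4. Averaging the tested probes of each gene, 1 gene passed. With Bonferroni 0 probes and 0 differences passed. Genes of the lists that passed numbered 45 here, 83 after the percentile shift, 78 with loess, 69 without the mask, 24 with the slide row as a block, 29 with the methods' t-test and Benjamini-Hochberg adjustment, 94 without the 2 arrays, 0 and 1 within the slide rows and 0 with Bonferroni.

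With the replicate number as a block, 1 member probe, 0 members as genes and 32 list genes passed, and the H19 changes stayed at -1.78 and -1.55. Same-numbered samples had deviations correlated at -0.0434, 0.189, 0.221 and 0.0566, 2 of 4 numbers were their own best match, and the labels do not say that a number marks a shared culture or day, so the numbers were not taken as pairs. Of 36 calls at the genes chosen for naming, this block ended 3, the slide row as a block 11 and the methods' t-test with Benjamini-Hochberg adjustment 14.

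Signs turned only for changes that had not passed. After the percentile shift these were 0.36 at the downstream H19 probe, 0.39 at Gas5 A_55_P2740898, 0.21 at Kcnq1ot1 A_55_P2717618, 0.26 for Cdkn1c, 0.31 for Nono and 0.0229 for the Neat1 difference. With loess they were 0.0173 for that Gas5 probe, 0.22 for that Kcnq1ot1 probe, 0.23 for Cdkn1c and 0.0056 for the Neat1 difference. Without the mask they were 0.24 (Kcnq1ot1) and 0.27 (Cdkn1c), with the deposited normalized values 0.29 (Cdkn1c), with the slide row as a block 0.27 (Cdkn1c) and without the 2 arrays 0.0362 (Kcnq1ot1) and 0.56 (Cdkn1c). Within the first slide row they were 0.0857 (Gas5), 0.20 (Kcnq1ot1), 0.38 (Cdkn1c) and 0.21 (Neat1 difference), and within the second -0.24 (Neat1 A_55_P2740113), -0.12 (Gas5 A_55_P2845828) and 0.15 (Cdkn1c). The causes were not tested. Leaving out single arrays gave -0.0497 to 0.34 and -0.10 to 0.25 at the Neat1 probes, -0.0687 to 0.23 at Gas5 A_55_P2845828, -0.31 to 0.15 at Kcnq1ot1 A_55_P2717618, -0.20 to 0.19 for the Neat1 difference and -0.26 to 0.29 for Cdkn1c. The Neat1 probes, and all of Meg3, Rian and Mirg, are limited by signal near background.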
